A study of Homo sapiens with 16 samples.

Results

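The APOBEC3 cytidine deaminases were followed as the 7 genes APOBEC3A, APOBEC3B, APOBEC3C, APOBEC3D, APOBEC3F, APOBEC3G and APOBEC3H, taken by symbol from GENCODE release 29 out of 58295 quantified genes. All 7 were found, and 6 passed the filter on low counts that left 18073 genes for testing. APOBEC3A had no read in any library and could not be tested. Polyadenylated RNA had been sequenced from JSL1, a clone of the established human leukemia T cell line Jurkat. The wild type (WT) was studied beside 2 derivatives edited with CRISPR-Cas9 at HDAC7, which encodes a class IIa histone deacetylase. The dE9 line expresses HDAC7 without the peptide of exon 9, and the iE9 line is labelled as expressing HDAC7 with it. Each line was grown in medium alone (unstimulated) or with PMA at 20 ng/mL, and the sample labels put every sample at 48 h. PMA is a phorbol ester that stands in for diacylglycerol and so switches on protein kinase C. There were 2 WT, 3 dE9 and 3 iE9 libraries per treatment, 16 in all, and all of them share the JSL1 background. Nothing states whether replicates were separate cultures or whether an edited line was 1 clone. The p-values therefore measure the spread between these libraries, which may be technical, and a difference between lines cannot be told apart from one between clones.

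APOBEC3 enzymes turn cytidine into uridine in single-stranded DNA and thereby restrict retroviruses and mobile elements, whose reverse transcripts they mutate. APOBEC3G, APOBEC3F, APOBEC3D and APOBEC3H are the members best known for blocking HIV that lacks Vif, the viral protein that directs them to degradation in T cells. APOBEC3A is known from myeloid cells and APOBEC3B from many cancers, where both are linked to mutation of the cell's own DNA. The genes arose by duplication, and each protein has 1 or 2 zinc-binding deaminase domains.

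Libraries held 14536537 to 21888896 estimated counts. The share of HDAC7 transcripts with exon 9 was 43.1% to 53.8% in WT, 0% to 7.37% in dE9 and 42.3% to 74.9% in iE9. It set the dE9 libraries apart from all others, but the iE9 and WT ranges overlapped, so it does not check the iE9 label against WT. Both iE9 libraries numbered 1 had more mitochondrial RNA (9.17% of counts unstimulated and 12.8% with PMA) than the other libraries (3.0% to 6.39%). On the first principal component of all tested genes (44.0% of the variance), dE9 PMA library 1 lay at 28 and the other dE9 PMA libraries at 75.0 and 88.0. Several member results that rest on these libraries are given below with and without them. For genes outside the family, fits without these libraries are not given. All 11 T cell markers exceeded 1 CPM (counts scaled to library size with TMM factors) in at least 1 library of every group, although CD2 was at 0.0616 and TRAC at 2.77 CPM in their lowest libraries. Of 8 myeloid markers, only S100A9 exceeded 1 CPM, up to 9.17, while CD14 stayed at or below 0.717 and LYZ at or below 0.37.

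The 7 genes lie in tandem on the plus strand of chromosome 22 (chr22:38952741-39104067, GRCh38), over 151.3 kb between CBX6 and CBX7. APOBEC3A (38952741 to 38992778) and APOBEC3B (38982347 to 38992804) come first, and the APOBEC3A model includes a transcript that runs through APOBEC3B. APOBEC3C (39014083 to 39020352), APOBEC3D (39021113 to 39033276), APOBEC3F (39040604 to 39053910), APOBEC3G (39077005 to 39087743) and APOBEC3H (39097224 to 39104067) follow. A separate protein-coding gene model, AL022318.4 (39014363 to 39033276), reads through from APOBEC3C into APOBEC3D. The antisense gene APOBEC3B-AS1 overlaps APOBEC3B and had a mean of 0 TPM over the libraries. TPM values are scaled to transcript length and to depth.

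The coding sequence of the catalytic motif shows how close the members are, and why reads of some of them are hard to assign. The search pattern was histidine, any residue, glutamate, 23 to 28 residues, proline, cysteine, 2 to 4 residues, cysteine. It was found once in the main coding transcripts of APOBEC3A, APOBEC3C and APOBEC3H, and in 2 places in those of APOBEC3B, APOBEC3D, APOBEC3F and APOBEC3G. The only or the downstream match of each member is printed here from the GENCODE 29 transcripts (plus strand, GRCh38). Capitals mark the codons of the histidine and of both cysteines, which hold the zinc, and of the catalytic glutamate. Each match lies within 1 coding exon.
APOBEC3A (chr22:38961420-38961530, exon 3): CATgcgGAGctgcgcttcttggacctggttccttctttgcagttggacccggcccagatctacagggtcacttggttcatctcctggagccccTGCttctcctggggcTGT
APOBEC3B (chr22:38991365-38991475, exon 6): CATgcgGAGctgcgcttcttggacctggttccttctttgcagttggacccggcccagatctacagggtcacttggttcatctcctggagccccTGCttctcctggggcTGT
APOBEC3C (chr22:39017787-39017891, exon 3): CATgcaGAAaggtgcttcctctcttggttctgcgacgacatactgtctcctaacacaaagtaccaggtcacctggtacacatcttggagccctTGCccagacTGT
APOBEC3D (chr22:39031715-39031819, exon 6): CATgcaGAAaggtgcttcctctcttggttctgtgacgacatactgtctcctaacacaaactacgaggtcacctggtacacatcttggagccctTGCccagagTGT
APOBEC3F (chr22:39052095-39052199, exon 6): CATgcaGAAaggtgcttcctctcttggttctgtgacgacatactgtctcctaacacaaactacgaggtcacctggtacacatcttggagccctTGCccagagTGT
APOBEC3G (chr22:39086312-39086416, exon 6): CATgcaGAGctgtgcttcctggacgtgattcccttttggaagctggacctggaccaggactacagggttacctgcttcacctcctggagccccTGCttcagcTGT
APOBEC3H (chr22:39101246-39101350, exon 3): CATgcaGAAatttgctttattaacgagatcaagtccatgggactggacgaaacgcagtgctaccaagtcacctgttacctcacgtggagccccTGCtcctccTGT

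The APOBEC3A and APOBEC3B stretches were identical over 111 bases, and those of APOBEC3D and APOBEC3F over 105 bases. APOBEC3C matched APOBEC3D and APOBEC3F at 96.2% of aligned bases. APOBEC3G was nearest to APOBEC3A and APOBEC3B, at 77.5%, and APOBEC3H had no neighbour above 61.9% among the printed stretches. The upstream motifs of APOBEC3B and APOBEC3F were identical to each other as well, over 105 bases.

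Shared sequence differed widely over the whole transcripts. Of all distinct 31-base words of a gene's transcripts, the share that also occurred in another gene of the annotation was 1.61% for APOBEC3H, 9.31% for APOBEC3C and 15.2% for APOBEC3G. It was 31.9% for APOBEC3F, 35.2% for APOBEC3A and 47.7% for APOBEC3B. For APOBEC3D it was 89.95%, of which most came from the readthrough model AL022318.4, which holds 82.1% of the APOBEC3D words. Other members held 22.5% of the APOBEC3D words and 30.2% of those of APOBEC3F, so the levels of this pair, and of APOBEC3B, rest most on how the quantification divided shared reads. APOBEC3H shared 0% with any other member. The read length is not given in the sources used here, so the words show where sequence repeats, not how many reads were ambiguous.

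**Figure D1:**
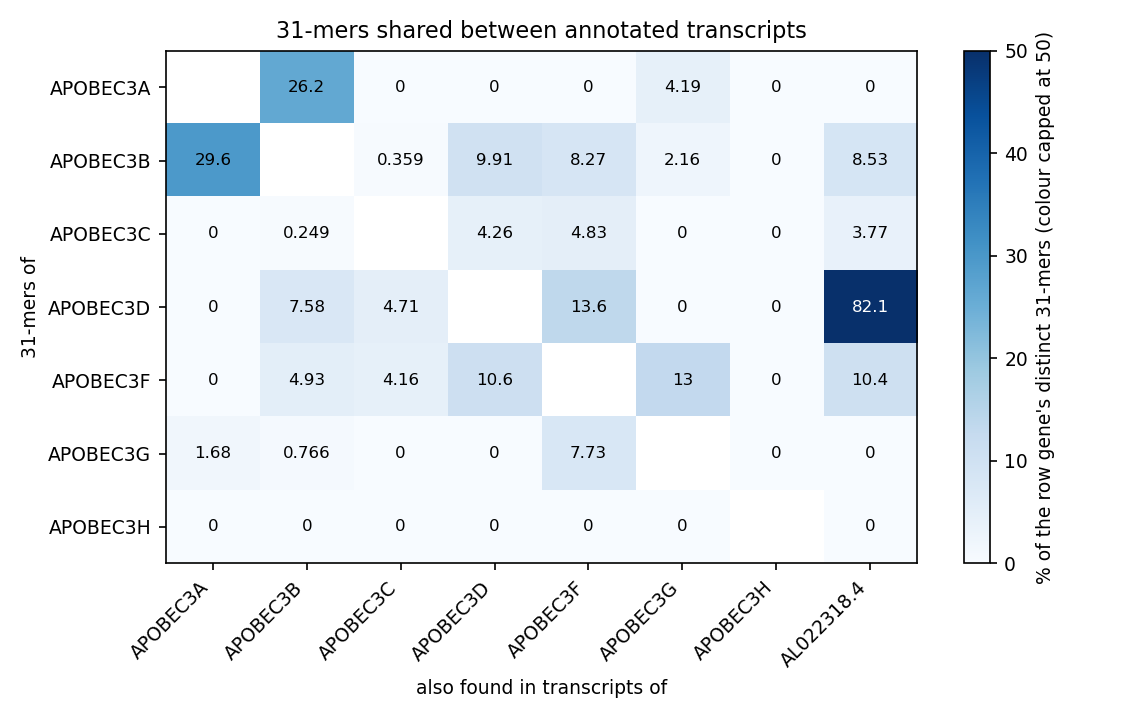
Percentage of the distinct 31-base words of each APOBEC3 gene (rows) that also occur in transcripts of each other member or of the readthrough model AL022318.4 (columns), with colour capped at 50. The pair of APOBEC3A and APOBEC3B and the overlap of APOBEC3D with AL022318.4 (82.1%) stand out, and the APOBEC3H row is 0 throughout.

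APOBEC3G, APOBEC3F and APOBEC3D rose with PMA in all 3 lines. Of the 6 members tested, 3 rose in WT (APOBEC3G, APOBEC3F and APOBEC3D), all 6 rose in dE9, and 4 rose in iE9 (APOBEC3D, APOBEC3F, APOBEC3G and APOBEC3H). No tested member was lower with PMA in any line. Among all 18073 genes, 11.1% rose in WT, 17.1% in dE9 and 12.6% in iE9. The median log2 fold change of the 6 members was 2.68 in WT, 3.53 in dE9 and 1.61 in iE9, against 0.03, 0.06 and -0.01 over all genes. Every PMA library exceeded every unstimulated library for 6 members in WT, 5 in dE9 and 5 in iE9, where 37.4%, 22% and 20.1% of all genes did so. APOBEC3B and APOBEC3H passed the filter on low counts through PMA libraries alone, so for them a rise was built into being tested. This limits each count and median over the 6 members. The log2 fold changes of APOBEC3C, APOBEC3D, APOBEC3F and APOBEC3G ran from 1.16 to 4.83 in WT. Those in dE9 ran from 0.9 to 4.92 and those in iE9 from 1.08 to 1.82. In these cultures, more cells with a transcript and more transcript per cell cannot be told apart. Of the 11 T cell markers, 4 rose in WT, 5 in dE9 and 4 in iE9, and their sum was 2439 to 4173 CPM without PMA and 4277 to 7519 CPM with PMA. Its part in the result was not tested. Among markers of other cells in dE9, 2 of 2 tested erythroid and 2 of 3 fibroblast or endothelial markers rose. There, 1 of 3 B cell, 1 of 3 natural killer and 1 of 1 myeloid markers rose too. In WT and in iE9, 1 myeloid and 1 fibroblast or endothelial marker rose, and 1 natural killer marker fell in iE9. The part of these markers was not tested either.

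**Figure D2:**
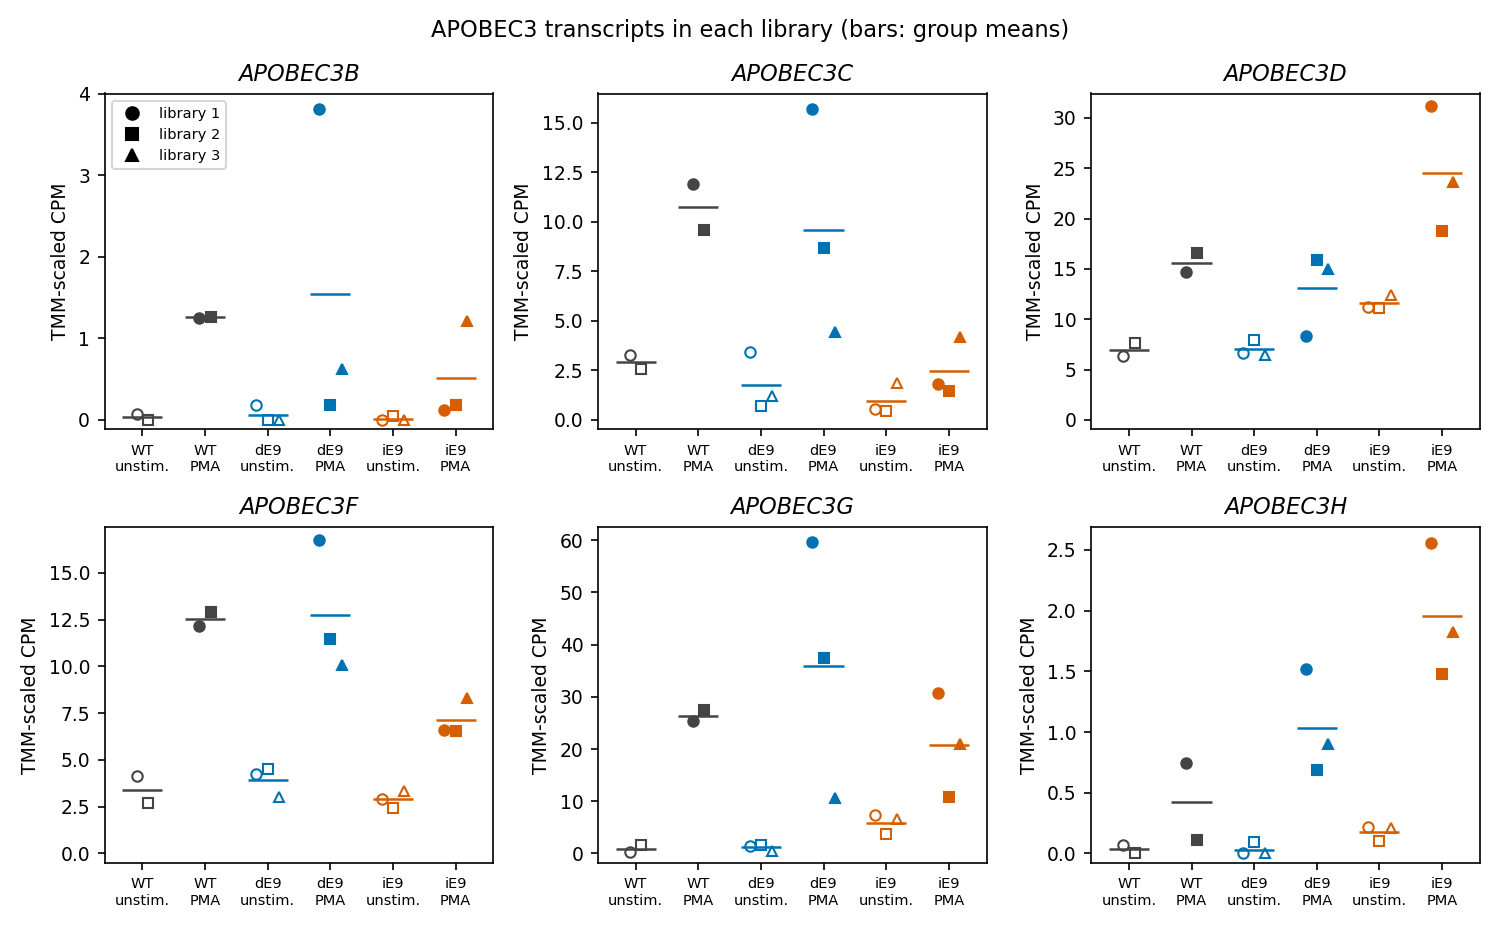
TMM-scaled CPM of the 6 detected members in each of the 16 libraries, with open symbols for unstimulated and filled symbols for PMA-treated cells, shapes for library numbers and bars for group means. All groups move up with PMA, APOBEC3G is spread from 10.7 to 59.6 CPM in the dE9 PMA libraries, and APOBEC3D lies highest in iE9.

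APOBEC3G, the most studied HIV restriction factor of the family, showed the widest range. In WT it stood at 0.268 and 1.54 CPM in the unstimulated libraries and at 25.4 and 27.4 CPM with PMA. In dE9 it stood at 1.48, 1.64 and 0.395 CPM unstimulated and at 59.6, 37.4 and 10.7 CPM with PMA. The dE9 PMA libraries thus differed more than 5-fold among themselves, yet the lowest exceeded every unstimulated library of any line. In iE9 it stood at 7.44, 3.67 and 6.54 CPM unstimulated and at 30.7, 10.8 and 20.9 CPM with PMA. The unstimulated iE9 libraries all lay above the unstimulated libraries of the other lines, so the step up with PMA began from a higher level. The log2 fold change with PMA was 4.83 ± 0.88 (SE) in WT (adjusted p = 0.00176), 4.92 ± 0.71 in dE9 (adjusted p = 0.000144) and 1.82 ± 0.6 in iE9 (adjusted p = 0.0366). The rise in dE9 held without library 1 (log2 4.35, adjusted p = 0.000148). The rise in iE9 no longer passed without both iE9 libraries numbered 1 (log2 1.65, adjusted p = 0.138). It also failed without PMA library 1 (adjusted p = 0.131) or 3 (0.0726), without unstimulated library 2 (0.136) or 3 (0.0809), and without WT PMA library 2 (0.0508). Under length-scaled counts, which correct for a shift between long and short transcripts, it missed the threshold as well (log2 1.68, adjusted p = 0.0596).

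APOBEC3F, which restricts HIV by a like route, rose in each line. It stood at 4.16 and 2.67 CPM in unstimulated WT and at 12.2 and 12.9 CPM with PMA. In dE9 it went from 4.25, 4.53 and 2.99 CPM to 16.7, 11.5 and 10.1 CPM. In iE9 it went from 2.93, 2.41 and 3.34 CPM to 6.59, 6.53 and 8.33 CPM. No PMA library overlapped with an unstimulated library of its line. Unstimulated levels overlapped between the lines, whereas all iE9 PMA libraries lay below all other PMA libraries in CPM. In TPM the highest iE9 PMA library (15.3) lay above the lowest dE9 PMA library (13.1). The log2 fold change was 1.88 ± 0.35 in WT (adjusted p = 0.00197), 1.7 ± 0.28 in dE9 (0.000417) and 1.31 ± 0.28 in iE9 (0.00358). All 3 calls held when any 1 of the 16 libraries was left out.

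APOBEC3D had the highest unstimulated mean CPM of the family in each line and the smallest rise. It stood at 6.3 and 7.65 CPM in unstimulated WT and at 14.7 and 16.6 CPM with PMA. In dE9 it went from 6.66, 7.9 and 6.44 CPM to 8.37, 15.9 and 14.97 CPM. In iE9 it went from 11.2, 11.1 and 12.4 CPM to 31.2, 18.7 and 23.7 CPM. The low dE9 PMA value came from library 1, the only library with reads on the readthrough model AL022318.4 (104.89 estimated counts, or 4.83 CPM, against 0 in the other 15). The log2 fold change was 1.16 ± 0.31 in WT (adjusted p = 0.016), 0.9 ± 0.25 in dE9 (0.0132) and 1.08 ± 0.25 in iE9 (0.00541). With the readthrough reads added to APOBEC3D, an alternative chosen after seeing the data, the dE9 value became 1.07 (adjusted p = 0.00133). The WT call was lost without any 1 of the 4 WT libraries (adjusted p = 0.0511 to 0.143), and under length-scaled counts (log2 0.57, adjusted p = 0.329). Under length-scaled counts the iE9 call was lost as well (adjusted p = 0.0641), and the dE9 call was lost without dE9 PMA library 2 (0.0515) or with only the dE9 libraries fitted (0.0612).

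APOBEC3H, a single-domain member with the least shared sequence, was near the detection limit without PMA. It had 1 count in unstimulated WT, 2 in dE9 and 9 in iE9, summed over libraries. With PMA it stood at 0.742 and 0.11 CPM in WT, at 1.52, 0.691 and 0.904 CPM in dE9, and at 2.56, 1.48 and 1.82 CPM in iE9. It rose in dE9 (log2 4.64 ± 1.01, adjusted p = 0.00268) and in iE9 (log2 3.42 ± 0.85, adjusted p = 0.0083), and both calls held without any 1 library. In WT the test missed the threshold (adjusted p = 0.0711), and of 15 PMA counts 13 came from library 1. The pooled ratio of PMA to unstimulated counts was 13.4 in WT (95% counting interval 2.05 to 562), 28.9 in dE9 (7.69 to 244) and 11.2 in iE9 (5.65 to 25.2).

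APOBEC3C, a single-domain member with weak activity against HIV in its common human form, had its lowest mean CPM in the iE9 line in both treatments. Unstimulated iE9 and dE9 libraries overlapped, however, and edgeR called no difference between lines for it. It stood at 3.28 and 2.55 CPM in unstimulated WT and at 11.9 and 9.61 CPM with PMA. In dE9 it went from 3.45, 0.701 and 1.19 CPM to 15.7, 8.66 and 4.46 CPM, a rise that passed (log2 2.45 ± 0.66, adjusted p = 0.0102). In iE9 it was at 0.543, 0.472 and 1.88 CPM unstimulated and at 1.79, 1.48 and 4.19 CPM with PMA, groups that overlapped. The WT and iE9 values missed the threshold, with log2 1.88 ± 0.79 (adjusted p = 0.0969) and log2 1.4 ± 0.68 (adjusted p = 0.142). Without unstimulated iE9 library 3 the iE9 value passed (log2 2.29, adjusted p = 0.0456).

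APOBEC3B, a nuclear enzyme that leaves mutations in tumour genomes, was almost absent without PMA, with 1 count in WT, 3 in dE9 and 1 in iE9 over all unstimulated libraries. With PMA it stood at 1.26 and 1.26 CPM in WT. In dE9 it was at 3.81, 0.184 and 0.622 CPM, and in iE9 at 0.128, 0.185 and 1.21 CPM. Single libraries thus held most of the reads, library 1 with 83.3 of the dE9 counts and library 3 with 21.9 of the iE9 counts. The pooled ratio was 40.04 in WT (95% counting interval 6.83 to 1616), 29.6 in dE9 (9.82 to 146) and 28.01 in iE9 (4.62 to 1147). The test passed in dE9 only (log2 4.61 ± 1.41, adjusted p = 0.0202), against adjusted p = 0.0672 in WT and 0.0623 in iE9. Without dE9 PMA library 1 or 2, which share the estimate of the spread, it also passed in WT (adjusted p = 0.0397 and 0.0481) and in iE9 (0.0355 and 0.0441). The dE9 call did not pass without PMA library 1 (log2 2.66, adjusted p = 0.144), without unstimulated library 2 (0.073) or 3 (0.0717), or with protein-coding transcripts alone (0.0568). Reads copied by PCR are not separate molecules, so the counting intervals leave out all error but that of counting.

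APOBEC3A, the myeloid and interferon-induced member, had 0 counts in 16 of 16 libraries, PMA included. A count of 0 allows a level of up to 0.138 to 0.209 CPM, depending on the depth of the library. Of its 31-base words, 64.8% occur in no other gene of the annotation, so most of its sequence could have been assigned. The myeloid marker list summed to 0.0565 to 9.72 CPM with PMA, of which S100A9 reached 9.17 CPM.

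In fits that kept the library number within a line as a block, APOBEC3B (log2 3.92, adjusted p = 0.0303) and APOBEC3C (log2 1.46, adjusted p = 0.0107) also passed in iE9, which made 6 of 6 members. The dE9 count stayed at 6 under this block.

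**Figure D3:**
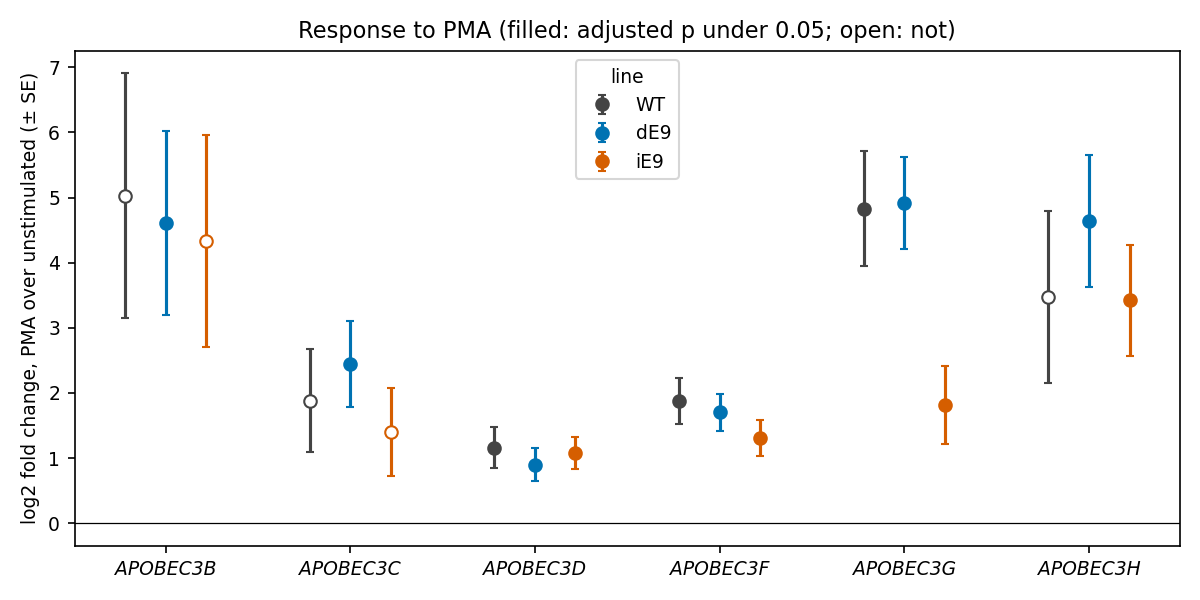
Log2 fold change of PMA over unstimulated cells for the 6 tested members in WT, dE9 and iE9, with bars for the standard error and filled symbols for an adjusted p under 0.05. All 18 values lie above 0, and APOBEC3G is at 4.83 and 4.92 in WT and dE9 against 1.82 in iE9. APOBEC3B and APOBEC3H passed the filter on low counts through PMA libraries alone.

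The edited lines were compared within each treatment, which asks whether HDAC7 with exon 9 and HDAC7 without it go with different levels. Without PMA, iE9 had more APOBEC3G and APOBEC3D than dE9, but edgeR called 0 of 6 members, where it called 1.72% of all genes. At an unadjusted p under 0.05 there were 2 members of 6, against 15.1% of all genes. DESeq2 called 1 member, against 2.52% of the 33304 genes with a count. Shares for DESeq2, here and below, are over these 33304 genes, which the filter on low counts did not reduce. DESeq2 can leave genes with low or outlying counts without an adjusted p, and such genes stayed in the 33304. Its shares may therefore be lower than they would be among the genes it could call. Shares for edgeR are over 18073 genes, so the shares of the 2 methods are not on the same scale. APOBEC3G averaged 5.89 CPM in iE9 and 1.17 in dE9 (log2 2.31 ± 0.67, 95% interval 0.89 to 3.73, adjusted p = 0.0996; DESeq2 adjusted p = 0.00708). APOBEC3D averaged 11.6 and 7.0 CPM (log2 0.72 ± 0.25, 95% interval 0.18 to 1.26, adjusted p = 0.178). All iE9 libraries lay above all dE9 libraries for 3 members, APOBEC3D, APOBEC3G and APOBEC3H, against 11.4% of all genes. Without both iE9 libraries numbered 1, the APOBEC3G value was 2.1 (adjusted p = 0.261). It passed in 1 of 16 fits that left out a library, that without dE9 PMA library 3 (adjusted p = 0.0422). Of 3 tested natural killer markers, 2 were called higher in iE9, with a median log2 of 3.51. The summed natural killer list was at 14.9 to 49.58 CPM in iE9 and 12.25 to 15.96 CPM in dE9. Of 11 T cell markers, 1 was called higher in iE9. The B cell, myeloid, erythroid, epithelial and fibroblast or endothelial lists had 0 called. The part of these markers in the result was not tested.

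With PMA, iE9 stood above dE9 for APOBEC3D and below it for APOBEC3C and APOBEC3F. edgeR again called 0 of 6, against 2.61% of all genes. At an unadjusted p under 0.05 there were 3 members, against 19.1% of all genes, and DESeq2 called the same 3 (3.86% of all genes). APOBEC3D averaged 24.5 CPM in iE9 and 13.1 in dE9 (log2 0.91 ± 0.25, 95% interval 0.38 to 1.44, adjusted p = 0.0672; DESeq2 0.0148). APOBEC3C averaged 2.49 and 9.61 CPM (log2 -1.94 ± 0.64, 95% interval -3.32 to -0.57, adjusted p = 0.121; DESeq2 0.0322). APOBEC3F averaged 7.15 and 12.8 CPM (log2 -0.83 ± 0.27, 95% interval -1.42 to -0.25, adjusted p = 0.119; DESeq2 0.0449). In CPM the libraries of the lines did not overlap for these 3 members, 1 higher in iE9 (9.69% of all genes) and 2 lower (11.1%). APOBEC3G, at 20.8 and 35.9 CPM, did overlap (log2 -0.79, 95% interval -2.02 to 0.45, adjusted p = 0.487). In TPM only APOBEC3D stayed apart, at 14.9 or more in iE9 and 11.8 or less in dE9. APOBEC3C reached 2.77 TPM in iE9 against a lowest 2.44 in dE9, and APOBEC3F reached 15.3 against a lowest 13.1. With the readthrough reads added, the APOBEC3D value was 0.74 (adjusted p = 0.0678), and without dE9 PMA library 1 it was 0.67 (adjusted p = 0.104). Among markers of other cells, the summed B cell list was higher in iE9 PMA libraries (209.7 to 408.1 CPM) than in those of dE9 (9.51 to 181.1). Almost all of this sum was CD79A, while PAX5 stayed at or below 0.308 CPM. Of the 3 B cell markers tested, 0 were called in this comparison, and their median log2 difference was -0.36. The natural killer, myeloid, erythroid, epithelial and fibroblast or endothelial lists had 0 called here as well.

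**Figure D4:**
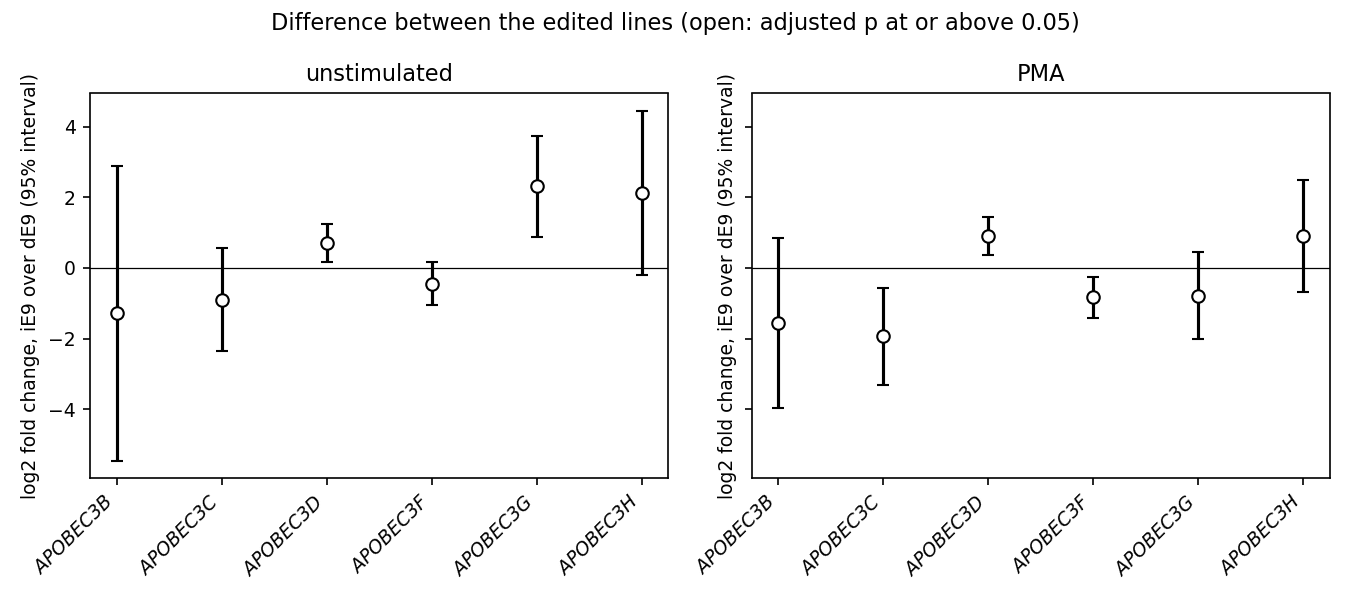
Log2 fold change of iE9 over dE9 for the 6 tested members, unstimulated (left) and with PMA (right), with bars for the 95% interval and open symbols because no adjusted p was under 0.05. The intervals of APOBEC3D and APOBEC3G without PMA, and of APOBEC3C, APOBEC3D and APOBEC3F with PMA, do not reach 0.

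The comparison of iE9 with WT, which shares the iE9 libraries with the one above, gave 0 of 6 members called by edgeR in both treatments (1.38% and 1.12% of all genes). Unstimulated, 3 members had an unadjusted p under 0.05 (15.1% of all genes) and DESeq2 called 1 (2.4%). This was APOBEC3G, at 5.89 CPM in iE9 against 0.905 in WT (log2 2.66 ± 0.81, adjusted p = 0.127; DESeq2 0.00692). With PMA, 4 members had an unadjusted p under 0.05 (14.2% of all genes) and DESeq2 called 0 (2.1%). The 4 were APOBEC3C, APOBEC3D, APOBEC3F and APOBEC3H. APOBEC3C stood at 2.49 CPM in iE9 against 10.8 in WT (log2 -2.11 ± 0.69, adjusted p = 0.172; 0.036 with only these groups fitted).

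Between dE9 and WT no member stood apart. edgeR and DESeq2 each called 0 of 6 members in both treatments, where edgeR called 0.0% of all genes and DESeq2 called 0.0601% without PMA and 0.027% with PMA. At an unadjusted p under 0.05 there were 0 members without PMA and 0 with PMA, against 3.1% and 2.54% of all genes. The 95% intervals were wide, so that differences of a few fold could not be seen for most members. For APOBEC3F with PMA the log2 difference was 0.03 (adjusted p = 1.0) and for APOBEC3G it was 0.44 (adjusted p = 1.0).

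Whether the lines differ in their response to PMA was tested as the difference of the fold changes. In edgeR 0 of 6 members passed for iE9 against dE9 (0.0% of all genes), and the same was found for iE9 against WT and for dE9 against WT. APOBEC3G came closest. Its log2 response was lower by 3.1 in iE9 than in dE9 (SE 0.88, 95% interval -4.98 to -1.22, unadjusted p = 0.00319, adjusted p = 0.383). With the library number as a block the same difference passed (log2 -3.1, adjusted p = 0.0406), and so did DESeq2 (adjusted p = 0.0384). Without dE9 PMA library 1 it was -2.52 (adjusted p = 0.195), and without both iE9 libraries numbered 1 it was -3.27 (adjusted p = 0.367). At an unadjusted p under 0.05 there was 1 member of 6 for iE9 against dE9 (6.86% of all genes), 1 for iE9 against WT (5.65%) and 0 for dE9 against WT (1.56%), and DESeq2 called 1, 0 and 0 (0.348%, 0.159% and 0.003% of all genes). Against WT the APOBEC3G response of iE9 was also lower, with log2 -3.0 ± 1.02 (adjusted p = 0.663). For APOBEC3D, the difference between iE9 and dE9 was 0.19, with a 95% interval of -0.57 to 0.94.

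Per length, the family had a different makeup with and without PMA. The 7 genes summed to 11.6 TPM ± 3.19 (SD, n = 2) in unstimulated WT and 57.4 ± 1.88 (n = 2) with PMA, a 4.93-fold step. They summed to 11.9 ± 1.4 and 64.7 ± 27.3 TPM in dE9 (n = 3 each, 5.42-fold), and to 18.2 ± 2.8 and 52.4 ± 12.1 TPM in iE9 (n = 3 each, 2.88-fold). APOBEC3D and APOBEC3F led without PMA in WT and dE9, at 5.95 and 3.58 TPM in WT and at 4.57 and 5.51 TPM in dE9. The libraries of these leaders overlapped in both lines. APOBEC3G took 1.78% to 7.61% of the summed TPM in unstimulated WT and 2.73% to 9.67% in unstimulated dE9. In unstimulated iE9 it took 17.5% to 32.7%, and the order there was APOBEC3D at 8.72 TPM, APOBEC3G at 4.87 and APOBEC3F at 3.82, with the last pair overlapping.

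With PMA, APOBEC3G led in WT with 22.5 TPM ± 1.08 (SD, n = 2), followed without overlap by APOBEC3F at 17.6 ± 1.19, APOBEC3D at 9.49 ± 0.928 and APOBEC3C at 5.76 ± 0.733. It also led in dE9, at 28.99 ± 19.5 TPM (n = 3), but overlapped with APOBEC3F at 17.8 ± 5.33. In iE9, APOBEC3D at 17.3 ± 3.51 TPM, APOBEC3G at 17.1 ± 7.1 and APOBEC3F at 12.2 ± 2.64 overlapped with their neighbours. APOBEC3H came next there at 3.62 ± 1.65 TPM, where it took 5.4% to 8.78% of the sum, against 0.437% to 2.07% in WT and 2.18% to 3.87% in dE9. APOBEC3C took 1.99% to 4.97% in iE9 PMA libraries and 6.28% to 11.2% in those of the other lines. APOBEC3B stayed at or below 4.11% in every PMA library.

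**Figure D5:**
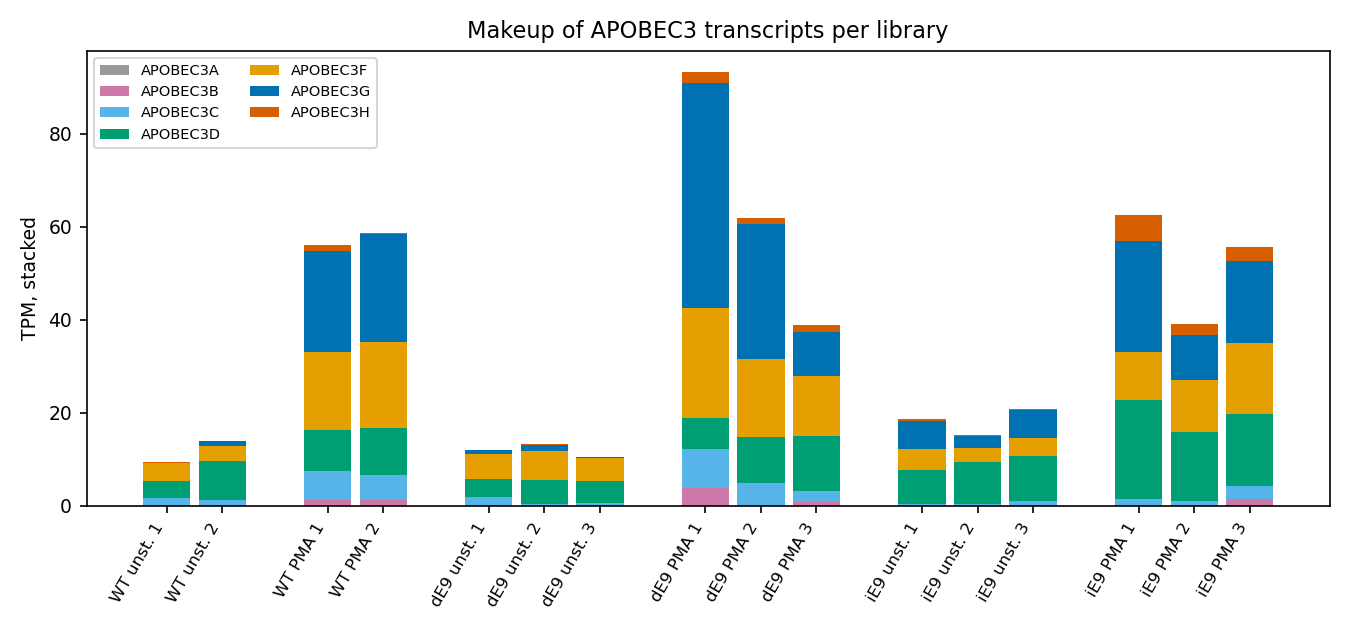
TPM of the 7 APOBEC3 genes stacked for each of the 16 libraries, with colours for members. The total is 9.38 to 20.8 TPM in unstimulated libraries and 38.9 to 93.2 TPM with PMA, dE9 PMA library 1 is the tallest bar, and APOBEC3G makes up 24.2% to 52.0% of the PMA bars.

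The gene sums hide different transcripts. For APOBEC3F, the 616-base transcript APOBEC3F-202 held 72.5% of the gene's TPM on average, and its 101 annotated codons do not contain the zinc motif. The full-length APOBEC3F-201, with 373 codons and 2 motifs, held 23.5% of the TPM but 60.9% of the estimated counts, because a short transcript needs fewer reads for the same TPM. Its level went from 1.26 to 4.35 TPM in WT, from 1.18 to 4.15 in dE9 and from 0.913 to 2.01 in iE9. The step of the coding form with both motifs was thus of the same direction as that of the gene sum. Of the words of APOBEC3F-202, 34.3% occur in another member.

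For APOBEC3G, the coding transcript APOBEC3G-201 (384 codons, 2 motifs) averaged 68.0% of the gene's TPM, and transcripts with a retained intron held most of the remainder. Its mean share lay between 62.0% and 73.4% in each of the 6 groups. For APOBEC3D, the full-length APOBEC3D-201 (386 codons, 2 motifs) varied from 0% in dE9 PMA library 1, the library with reads on AL022318.4, to 100.0% in a WT PMA library. APOBEC3D-202 and APOBEC3D-203, which carry 1 motif each, held 32.6% and 11.1% of the TPM on average. In iE9 the APOBEC3D-201 share was 42.3% ± 19.0 unstimulated and 70.8% ± 6.6 with PMA (SD, n = 3 each), which did not pass the test (exact permutation p = 0.1, two-sided, the smallest that 3 against 3 libraries allow). Of 9 such tests, on APOBEC3D-201, APOBEC3F-202 and APOBEC3G-201 in 3 lines, none could reach 0.05, since 2 against 2 libraries allow no exact permutation p under 0.333. Their adjusted p ran from 0.857 to 1.0.

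Genes outside the family with at least 5 CPM on average were searched, leaving out pseudogenes, LINC genes and genes named after clones. Those whose log2 CPM followed a member most closely over the 16 libraries were found for the 3 members at that level. APOBEC3G was nearest to PI16 (Pearson r = 0.981), MVP (0.978) and NPDC1 (0.965). APOBEC3D was nearest to PLCXD2 (0.96), SIRPG (0.957) and SPCS1 (0.956), and APOBEC3F to CD82 (0.956), PRDM8 (0.945) and NLK (0.943). Within the family, r was highest between APOBEC3B and APOBEC3F (0.88) and lowest between APOBEC3C and APOBEC3D (0.15). These 16 points share libraries and the split by PMA, so the values describe likeness only.

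The genes on both sides of the cluster were counted as well. Of 12 tested neighbours on chromosome 22, 1 rose and 0 fell with PMA in WT, 3 rose and 1 fell in dE9, and 2 rose and 1 fell in iE9, with medians of 0.05, -0.05 and 0.01 on the log2 scale. Among all genes, 11.1%, 17.1% and 12.6% rose and 11.3%, 16.5% and 14.4% fell in WT, dE9 and iE9. SUN2, a nuclear envelope protein, rose in WT from 143 ± 4.51 to 301 ± 1.23 CPM (SD, n = 2 each, adjusted p = 0.0303). CBX6, the nearest coding gene upstream, was at 129.5 CPM unstimulated and 130.3 with PMA in WT (log2 0.01, adjusted p = 0.981). CBX7, the nearest downstream, had log2 0.67 in WT (adjusted p = 0.0936), and rose in dE9 (log2 0.72, adjusted p = 0.0229) and iE9 (log2 0.64, adjusted p = 0.0483). CBX6 and CBX7 were named for their position.

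Other antiviral genes and their regulators were counted from lists chosen with earlier results of these data known. For these too the background is the 11.1%, 17.1% and 12.6% of all genes that rose and the 11.3%, 16.5% and 14.4% that fell. Of 15 tested retrovirus restriction factors, 6 rose and 3 fell with PMA in WT, 8 rose and 3 fell in dE9, and 7 rose and 2 fell in iE9, with a median log2 of 0.69, 0.91 and 0.79. MX2, which blocks nuclear entry of HIV, rose in WT from 3.86 ± 0.512 to 46.3 ± 0.182 CPM (n = 2 each, adjusted p = 6.81e-06), and TRIM5, which binds incoming capsids, from 18.3 ± 0.871 to 46.8 ± 2.22 CPM (adjusted p = 0.00161). IFITM2, which hinders entry, rose from 3.92 ± 1.09 to 34.4 ± 10.8 CPM (adjusted p = 0.00201). Of 14 tested interferon and STAT regulators, 8 rose and 0 fell in WT, 10 and 0 in dE9, and 10 and 1 in iE9, with medians of 1.1, 1.21 and 1.12. STAT3 (log2 1.9), IRF2 (1.27) and IRF9 (1.87) had the smallest adjusted p in WT.

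Of 12 protein kinase C and NF-kB genes linked to APOBEC3B induction, 5 rose and 1 fell in WT, 5 and 1 in dE9, and 4 and 0 in iE9 (median log2 0.49, 0.31 and 0.3). RELB, a subunit of non-canonical NF-kB, rose in WT from 4.45 ± 0.43 to 20.6 ± 2.12 CPM (n = 2 each, adjusted p = 0.000261). PRKCB rose as well (log2 1.66), while PRKCA fell (log2 -1.45). Of 14 genes of the DREAM and B-MYB complexes, which control APOBEC3B in cycling cells, 0 rose and 4 fell in WT, 3 and 7 in dE9, and 3 and 2 in iE9 (median log2 -0.53, -0.65 and -0.31). TFDP1 (log2 -1.72), E2F5 (-1.07) and RBL1 (-1.58) were among those that fell in WT.

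None of the tested genes of uracil repair and dUTP control rose with PMA, and UNG, SMUG1, TDG and MBD4 were not called in any line. Of 13 tested genes of uracil repair and dUTP control, 0 rose and 4 fell in WT, 0 and 5 in dE9, and 0 and 3 in iE9 (median log2 -0.22, -0.4 and -0.3). DUT, which keeps dUTP low, fell in WT from 227 ± 22.5 to 80.4 ± 10.3 CPM (n = 2 each, adjusted p = 0.0012). PARP1 (log2 -1.05) and LIG1 (log2 -1.54), which act in strand repair, fell too. Of 8 partners of the ubiquitin ligase that Vif recruits, 0 rose and 1 fell in WT, 1 and 2 in dE9, and 0 and 3 in iE9 (median log2 -0.32, -0.32 and -0.37). ARIH2 was the one that fell in WT (log2 -0.81, adjusted p = 0.00328). Of 3 tested genes among 8 other deaminases, 1 rose in each line (median log2 0.12, 0.36 and 0.2). It was ADARB1, an adenosine deaminase of double-stranded RNA, which rose from 42.4 ± 3.09 to 123 ± 16.7 CPM in WT (adjusted p = 0.00254).

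Between the edited lines, 1.72% of all genes were called without PMA and 2.61% with PMA. Without PMA, 1 interferon and STAT regulator, the interferon gamma receptor chain IFNGR1, was higher in iE9 (131 ± 84.9 CPM) than in dE9 (28.3 ± 9.77 CPM, n = 3 each, adjusted p = 0.0279). With PMA, ADARB1 (log2 0.99, adjusted p = 0.0413) and GTPBP1, a neighbour of the cluster (log2 0.59, adjusted p = 0.0484), were higher in iE9.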

How the data were processed

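Polyadenylated RNA of 16 libraries was quantified by the authors with Salmon on the hg38 build and compared with DESeq2, per the submitters' processing notes, which give no versions. The sources used here give neither read length nor strand. Per the file headers, each library has estimated counts and TPM per transcript, deposited by the authors, and a deposited gene table of TPM equalled the gene sums (largest difference 0.0), with 0 columns left unused. All 205870 transcripts matched GENCODE 29 in identifier and length.

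Estimated counts were summed per gene, rounded and tested with edgeR 4.0.16 (R 4.3.3, quasi-likelihood F test, two-sided, TMM, filterByExpr, 1 coefficient per group over all 16 libraries). The filter kept 18073 of 33304 genes with a count. A gene is called, or written to rise or fall, where the p adjusted by Benjamini and Hochberg over 18073 genes was under 0.05, and standard errors are the log2 fold change over the root of F. Adjusted p-values are from edgeR unless DESeq2 1.42.0, run as an alternative on all 33304 genes with a count, is named. Levels of 1 gene between libraries are TMM-scaled CPM and levels between genes are TPM. Transcript shares were compared by exact permutation tests. Counting intervals for ratios of APOBEC3B and APOBEC3H counts are exact at 95%, and the limit at 0 counts is 3 counts per library.

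Groups came from the sample labels. Equal library numbers are also in the labels. Within a line, deviations from group means correlated between equal numbers at 0.24 to 0.305 in dE9 and 0.19 to 0.441 in iE9. In WT they correlated at 0.073, which gives no pairing. The main fit has no block and ignores the numbers in every line. Pairs by number entered only the block, an alternative fit that took the WT numbers as pairs too. The members, lists and alternatives were chosen with earlier results of these data known. Members were always named, and from each list up to 3 called genes with the smallest adjusted p in WT PMA and in iE9 against dE9. Alternatives were DESeq2, RLE factors, no filter, only the compared groups, protein-coding transcripts alone, length-scaled counts, the block, and leaving out libraries. For PMA and for differences in response, the block was the library number within a line. For comparisons between lines it was the library number shared by all lines, although numbers were checked for pairing only within lines.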

Additional observations from a re-analysis of the deposited data

How the results depend on the processing

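Depth limits APOBEC3B and APOBEC3H most, since their unstimulated counts sum to at most 9 in any line. The count of members called rose from 3 to 5 for PMA in WT with DESeq2, without the filter, with only the compared groups, and with the replicate block, each adding APOBEC3B and APOBEC3C. Under length-scaled counts APOBEC3D lost its WT call. For PMA in dE9, APOBEC3B lost its call with protein-coding transcripts alone and without PMA library 1 or unstimulated library 2 or 3. APOBEC3D lost its dE9 call with only the compared groups and without dE9 PMA library 2. For PMA in iE9 the count of members called moved from 4 to 2 under length-scaled counts, to 6 without the filter and with the replicate block, and to 5 with DESeq2. From 0 called, DESeq2 gave 1 for iE9 against dE9 unstimulated, 3 with PMA, 1 for iE9 against WT unstimulated and 1 for the response of iE9 against dE9. Without the filter these became 1, 2, 2 and 1, with 1 for iE9 against WT with PMA and 1 for its response. The replicate block gave 1 for the response of iE9 against dE9, and fitting only the compared groups gave 1 for iE9 against WT with PMA. Leaving out 1 library gave 0 to 1 members for iE9 against dE9 unstimulated. RLE factors and the readthrough reads changed no call or direction. The causes of these changes were not tested. Calls over all genes ranged over alternatives from 1419 to 8284 for PMA in WT (main 4038), from 4602 to 8174 in dE9 (6060) and from 3282 to 7200 in iE9 (4892). For iE9 against dE9 they ranged from 110 to 1319 unstimulated (311) and from 47 to 1801 with PMA (471). They ranged from 18 to 1220 for iE9 against WT unstimulated (249) and from 24 to 1162 with PMA (203). From 0 genes they reached at most 132 and 174 for dE9 against WT, and 480, 292 and 49 for the response differences.

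No called value changed direction. Among values that were not called, log2 differences changed sign as follows. With length-scaled counts, APOBEC3F in iE9 against WT unstimulated was 0.07, and APOBEC3D in dE9 against WT was -0.41 unstimulated and 0.02 with PMA. The response differences of APOBEC3D under length-scaled counts were -0.17 for iE9 against dE9, 0.27 for iE9 against WT and 0.44 for dE9 against WT, and that of APOBEC3H in iE9 against WT was 0.02. With the replicate block, APOBEC3D in dE9 against WT was -0.01 unstimulated, APOBEC3B was -0.58 with PMA, and the response difference of APOBEC3G was -0.08. APOBEC3B in iE9 against WT unstimulated was 1.88 with protein-coding transcripts alone. The APOBEC3D response difference of iE9 against dE9 was -0.04 without both iE9 libraries numbered 1.

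Leaving out 1 library at a time gave these ranges of log2 values across 0. For iE9 against dE9, APOBEC3B ran from -3.18 to 1.89 and APOBEC3C from -1.78 to 0.0 unstimulated, and APOBEC3B from -3.25 to 0.38 with PMA. For iE9 against WT unstimulated, APOBEC3B ran from -2.47 to 1.9 and APOBEC3F from -0.53 to 0.1. For dE9 against WT unstimulated, APOBEC3B ran from -2.45 to 3.2, APOBEC3D from -0.12 to 0.17, APOBEC3F from -0.07 to 0.57, APOBEC3G from -0.38 to 2.12 and APOBEC3H from -2.46 to 2.6. With PMA, APOBEC3B ran from -1.65 to 0.82, APOBEC3C from -0.71 to 0.19, APOBEC3F from -0.22 to 0.18 and APOBEC3G from -0.13 to 0.89. Response differences of iE9 against dE9 ran from -3.45 to 1.67 for APOBEC3B and from -0.05 to 0.36 for APOBEC3D. Those of iE9 against WT ran from -3.19 to 1.19 for APOBEC3B, from -1.1 to 0.4 for APOBEC3C, from -0.29 to 0.08 for APOBEC3D and from -2.53 to 1.84 for APOBEC3H. Those of dE9 against WT ran from -2.91 to 2.74 for APOBEC3B, from -0.54 to 0.1 for APOBEC3F, from -1.67 to 0.82 for APOBEC3G and from -1.32 to 3.73 for APOBEC3H. The change in transcript share with PMA ran from -22.5 to 14.5 percentage points for APOBEC3D-201 in dE9, from -1.2 to 13.8 for APOBEC3F-202 in WT and from -11.8 to 0.9 in dE9.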
